A study of Mus musculus with 36 samples.

Results

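Macrophages from the yolk sac of mouse embryos at stage E12.5 were set against monocytes from the bone marrow of adult mice aged 6 to 12 weeks. The arrays were chosen by their titles, 4 for each population, which gave 8 of the 36 arrays of the study. All donors of these cells were wild-type C57BL/6 mice that carried both CD45.1 and CD45.2 as congenic markers. In the study, part of such cells went through the nose into the lungs of newborn Csf2rb-/- mice, which lack the common beta chain used by the GM-CSF receptor. Their descendants were sorted from lung lavage 6 weeks after transfer and are called YS-derived and BM-derived macrophages. Monocytes of fetal liver at stage E15.5 are a further population of donor cells, and the remaining 4 groups are alveolar macrophages of other origins. Yolk sacs were digested with collagenase A, while bones were crushed. Embryonic stage, tissue, cell type and handling therefore differ together between the 2 populations and cannot be told apart. Samples are labelled as biological replicates, with no number of embryos or mice given for any of them.

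Yolk sac macrophages are the first macrophages of the embryo. They arise from early progenitors without passing through a monocyte, spread to the tissues, and give rise to the microglia of the brain. Bone marrow monocytes descend from haematopoietic stem cells, leave the marrow through the receptor Ccr2, and carry antimicrobial proteins such as the S100 alarmins. The comparison addresses how the 2 precursors differ before they meet the lung.

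Values are log2 intensities of probe sets, as normalised by the authors with RMA, so a step of 1 is a doubling of signal. The median of the whole table was 4.62 and stands here for the level under which a probe set is dim. A gene was tested where it exceeded that median in at least 4 arrays of the series, which left 12244 genes of 19938. A gene bright in a single group of 4 arrays could pass through that group alone, which favours a call in its direction. Differences are yolk sac minus bone marrow, each with its standard error, and a gene was called at a limma adjusted p under 0.05. Where the lower mean was dim, the fold is given as "at least", against the table median, and the log2 value beside it is the difference of the probe sets. Levels of different genes cannot be compared, because probe sets differ in brightness.

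The 2 populations differed in a large part of the genes tested. A total of 5166 genes were called, which is 42.2% of all, with 2948 higher in yolk sac macrophages (24.1%) and 2218 lower (18.1%). At least a 2-fold difference was seen in 1176 of the higher genes (9.6% of all tested) and in 759 of the lower ones (6.2%). When each array was centred on its own median, the higher genes made up 68.2% of the calls, compared with 57.1% as deposited, and the median difference of all genes moved to 0.10, compared with -0.01. Some 331 genes were at least 4-fold higher and 263 at least 4-fold lower, and beyond 16-fold there were 68 on each side. The 4 values of one population lay wholly above the 4 of the other in 38.5% of genes. Arrays of a population resembled each other, with a mean correlation across genes of 0.981 to 0.982 among yolk sac macrophages and 0.968 to 0.975 among bone marrow monocytes. The median over all probe sets of an array lay between 4.54 and 4.62 in yolk sac arrays and between 4.67 and 4.73 in bone marrow arrays. The median SD of a gene within its group was 0.187 in yolk sac macrophages and 0.224 in bone marrow monocytes.

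The labels were read beside marker genes. Several of these markers are among the largest rises and falls of this same comparison, so the reading is no independent check. Of 14 measured macrophage markers, 14 exceeded the table median in all 4 yolk sac arrays and 4 did so in all 4 bone marrow arrays. Their mean lay between 10.15 and 10.25 in yolk sac arrays, against 5.78 to 5.95 in bone marrow arrays. A total of 13 were higher in yolk sac macrophages, beside 24.1% of all tested genes. Cd68, a lysosomal membrane protein of all mononuclear phagocytes, was not called. Of 12 measured classical monocyte markers, 11 were lower in yolk sac macrophages, beside 18.1% of all tested genes. Their mean lay between 5.35 and 5.63 in yolk sac arrays, against 11.24 to 11.47 in bone marrow arrays. The exception was F13a1, the clotting factor XIII A chain, with 11.23, 11.11, 11.03 and 11.43 in yolk sac macrophages, against 11.13, 12.03, 11.15 and 11.29 in bone marrow monocytes. The F13a1 values of the 2 populations overlapped.

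**Figure D1:**
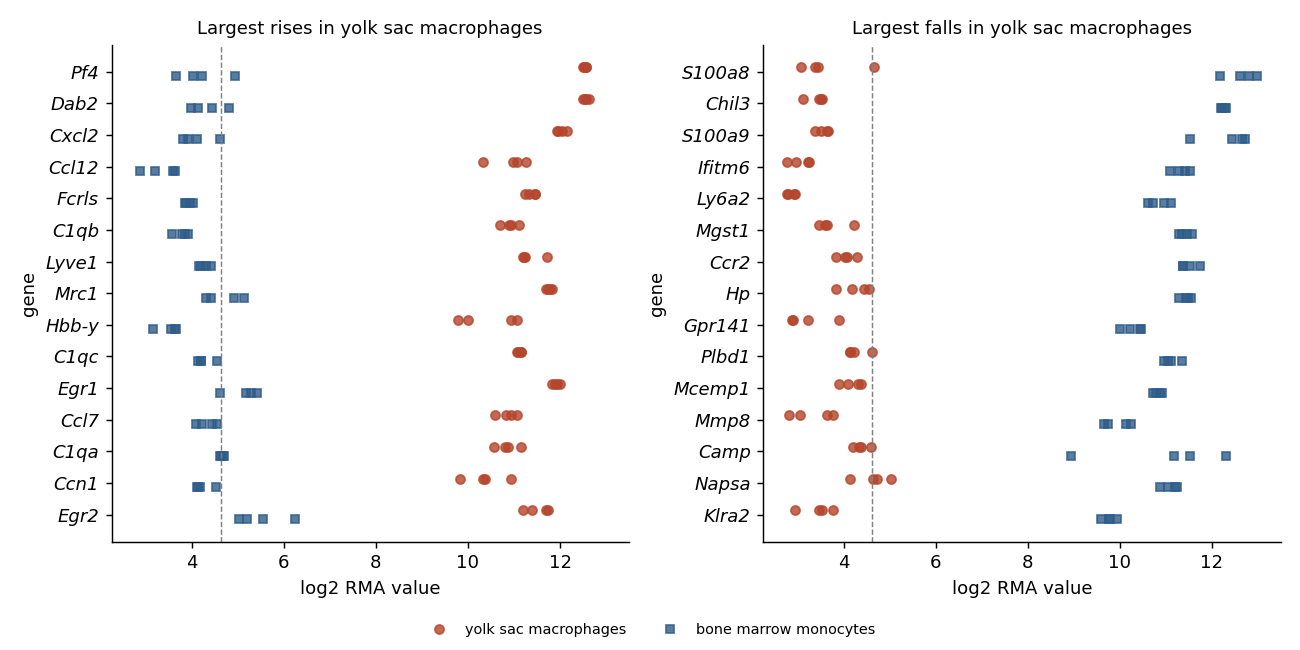
Log2 RMA value (horizontal axis) of the 15 genes with the largest rise and the 15 with the largest fall whose arrays do not overlap, with each point 1 array (4 of yolk sac macrophages, 4 of bone marrow monocytes) and the dashed line at the median of the table, 4.62. Points of the 2 populations stand apart for every gene drawn, and the lower population lies near or under the dashed line for most of them.

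Promoters are shown for 6 genes at the extremes of the comparison that carry the letters AGGAAGT, the core bound by PU.1, the master transcription factor of myeloid cells. Fcrls, C1qb and Mrc1 were high in yolk sac macrophages, and S100a8, Chil3 and Ifitm6 were high in bone marrow monocytes. A seventh, Cxcl2, holds a site of NF-κB, the factor of inflammatory gene induction. Each line gives the 250 bases before the first listed start of the gene, 5′ to 3′ on its own strand, from RefSeq on mouse build GRCm38.p6. Capitals mark the motif, which in the first 6 genes lies on the opposite strand and so reads ACTTCCT, and in Cxcl2 covers a pair of overlapping matches.
Fcrls: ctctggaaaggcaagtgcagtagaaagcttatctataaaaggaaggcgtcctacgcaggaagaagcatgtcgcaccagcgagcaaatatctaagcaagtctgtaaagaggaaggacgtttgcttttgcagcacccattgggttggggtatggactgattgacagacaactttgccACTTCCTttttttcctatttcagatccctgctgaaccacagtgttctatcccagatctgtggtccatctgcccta
C1qb: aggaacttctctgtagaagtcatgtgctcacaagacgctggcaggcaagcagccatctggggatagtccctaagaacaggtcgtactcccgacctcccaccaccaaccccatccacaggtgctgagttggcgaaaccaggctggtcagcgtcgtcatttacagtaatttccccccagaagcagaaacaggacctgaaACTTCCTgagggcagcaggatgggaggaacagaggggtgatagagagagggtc
Mrc1: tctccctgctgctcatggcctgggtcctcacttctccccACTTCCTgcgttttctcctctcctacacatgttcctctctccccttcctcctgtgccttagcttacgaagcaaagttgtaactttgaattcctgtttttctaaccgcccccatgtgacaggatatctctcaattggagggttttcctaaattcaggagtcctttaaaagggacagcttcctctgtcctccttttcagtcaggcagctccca
S100a8: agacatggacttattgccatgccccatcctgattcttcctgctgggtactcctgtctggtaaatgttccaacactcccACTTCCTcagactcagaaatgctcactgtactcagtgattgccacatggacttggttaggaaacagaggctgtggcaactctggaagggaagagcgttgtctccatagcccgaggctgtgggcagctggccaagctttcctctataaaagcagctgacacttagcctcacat
Chil3: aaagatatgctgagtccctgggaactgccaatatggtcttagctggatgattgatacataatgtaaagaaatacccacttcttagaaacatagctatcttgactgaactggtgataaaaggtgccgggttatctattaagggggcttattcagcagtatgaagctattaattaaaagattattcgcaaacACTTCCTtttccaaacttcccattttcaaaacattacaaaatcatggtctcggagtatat
Ifitm6: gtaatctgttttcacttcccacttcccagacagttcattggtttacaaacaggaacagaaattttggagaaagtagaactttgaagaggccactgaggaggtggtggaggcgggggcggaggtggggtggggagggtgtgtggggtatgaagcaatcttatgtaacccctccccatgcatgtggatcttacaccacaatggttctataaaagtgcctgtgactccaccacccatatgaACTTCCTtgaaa
Cxcl2: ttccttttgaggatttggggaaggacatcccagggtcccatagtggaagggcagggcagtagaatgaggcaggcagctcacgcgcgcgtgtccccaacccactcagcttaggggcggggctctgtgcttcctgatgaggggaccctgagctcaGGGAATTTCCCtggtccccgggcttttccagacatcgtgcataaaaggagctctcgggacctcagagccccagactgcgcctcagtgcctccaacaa
The windows are chr3:87263525-87263774 (minus strand) for Fcrls, chr4:136886201-136886450 (minus) for C1qb and chr2:14229164-14229413 (plus) for Mrc1. Those of the monocyte genes are chr3:90668821-90669070 (plus) for S100a8, chr3:106167565-106167814 (minus) for Chil3 and chr7:141016893-141017142 (minus) for Ifitm6, and Cxcl2 lies at chr5:90903649-90903898 (plus). The PU.1 letters end 68 bases before the start in Fcrls, 46 in C1qb, 204 in Mrc1, 165 in S100a8, 53 in Chil3 and 5 in Ifitm6. None of the marked motifs overlapped another of the motifs searched in these windows. Motifs were searched on both strands as AGGAAGT for PU.1, TGCTGAC for MAF factors, TTGCNNAA for C/EBP factors, TGACGTCA for CREB, TATAAA for the TATA box, and the NF-κB site and the CArG box by their usual consensus.

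AGGAAGT occurred in 44 of 206 promoters of genes at least 4-fold lower in yolk sac macrophages (21.4%) and in 30 of 246 promoters of genes at least 4-fold higher (12.2%). It occurred in 7.7% of the 9794 promoters of tested genes and in 7.8% of all 27025 listed. TTGCNNAA occurred in 13.6% of the lower genes, 7.72% of the higher genes and 7.28% of tested genes. TGCTGAC went the other way, with 6.91% of the higher genes, 2.91% of the lower genes and 3.13% of tested genes. The NF-κB site occurred about equally in both directions, with 6.5% of the higher genes, 6.8% of the lower genes and 4.28% of tested genes. It was found in 5 of 17 promoters of chemokine ligands (29.4%). Of these ligands, Cxcl1, Cxcl2 and Cxcl10 were higher in yolk sac macrophages, Ccl9 was lower and Cxcl3 was not called. A CArG box, the element known from immediate early genes, was found in 1 of 18 promoters of that group within this window (5.56%), compared with 1.13% of tested genes, and the NF-κB site in 4 of the 18 (22.2%). These shares describe letters and no binding. Spi1, which encodes PU.1, was not called and read 10.37, 10.19, 10.30 and 10.34 in yolk sac macrophages, against 10.57, 10.01, 10.55 and 10.22 in bone marrow monocytes. The Spi1 values of the 2 populations overlapped.

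Receptors of endocytosis and phagocytosis were among the genes with the largest rises in yolk sac macrophages. Of 16 tested genes of endocytosis, 9 were higher in yolk sac macrophages (56.2%, against 24.1% of all genes) and 2 were lower, a share under the 18.1% of all tested genes. Stab1, a scavenger receptor that clears altered proteins, read 10.01, 10.17, 10.44 and 10.70 in yolk sac macrophages, against 4.65, 4.53, 4.71 and 4.44 in bone marrow monocytes. The 4 yolk sac values of Stab1 lay above the 4 bone marrow values, a difference of at least 52.3-fold (log2 fold change 5.75 ± 0.12 SE, adjusted p = 3.56e-28). Cd36, a receptor for fatty acids and oxidised lipid, read 9.26, 9.55, 9.35 and 9.43 in yolk sac macrophages, against 4.62, 4.18, 4.23 and 4.43 in bone marrow monocytes. The populations did not overlap for Cd36 (log2 fold change 5.03 ± 0.13 SE, adjusted p = 5.74e-26). Colec12, a scavenger collectin of the membrane, differed by 3.81 ± 0.37. The coat machinery rose by smaller amounts, with clathrin heavy chain Cltc at 1.56 and the adaptor Ap2a2 at 1.29. Scavenger receptors were not uniformly higher: Msr1 differed by -0.16 and Marco by -0.16, both without a call, and Scarb2, a lysosomal receptor, was lower at -0.91. Cd163, the haemoglobin scavenger, did not pass the filter and read 4.57, 4.52, 4.87 and 4.38 in yolk sac macrophages, against 3.52, 3.58, 3.73 and 3.51 in bone marrow monocytes.

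Complement genes held higher members among the components and the receptors. The 3 chains of C1q, the recognition molecule, were higher, with C1qa at 6.20 ± 0.12, C1qb at 7.13 ± 0.16 (at least 78-fold) and C1qc at 6.84 ± 0.22 (at least 89.8-fold). C1qc read 11.09, 11.15, 11.07 and 11.15 in yolk sac macrophages, against 4.20, 4.20, 4.14 and 4.54 in bone marrow monocytes. C3ar1, the receptor for the anaphylatoxin C3a, read 11.47, 11.38, 11.49 and 11.50 in yolk sac macrophages, against 5.94, 5.99, 5.25 and 5.52 in bone marrow monocytes. This was 55-fold higher (log2 fold change 5.78 ± 0.34 SE, adjusted p = 5.45e-16), and C5ar1, the receptor for C5a, differed by 3.34 ± 0.18. A second C5a receptor, C5ar2, was not called (0.32), although it was without yolk sac replicate 3 (0.43), without bone marrow replicate 3 (0.39) and with arrays centred (0.42), and the complement regulator Cr1l was lower at -0.65 ± 0.12. Of the classical proteases that C1q activates, C1ra differed by -0.06 without a call, and C1s1 did not pass the filter. Properdin, encoded by Cfp, was lower at -0.85. In all, 7 of 11 tested complement genes were higher (63.6%, against 24.1% of all tested genes) and 2 were lower (18.2%, against 18.1%).

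Genes for the uptake of dying cells were higher in 6 of 16 tested members (37.5%, against 24.1% of all tested genes) and lower in 3 (18.8%, against 18.1%), and 7 were not called. A receptor and its bridge led the group. Mertk, a receptor tyrosine kinase for dying cells, read 7.53, 7.64, 7.38 and 7.68 in yolk sac macrophages, against 3.53, 3.64, 3.22 and 3.33 in bone marrow monocytes. Gas6, the protein that links Mertk to phosphatidylserine, read 9.37, 9.30, 9.13 and 9.63 in yolk sac macrophages, against 3.98, 3.95, 4.68 and 4.44 in bone marrow monocytes. Neither gene overlapped between the populations, and the differences were 4.13 ± 0.18 (at least 7.64-fold) for Mertk and 5.09 ± 0.13 (at least 26.6-fold) for Gas6. The related receptor Axl (-0.22) and the other bridge Pros1 (0.18) were not called. Cd300lb and Cd300lf, lipid-binding receptors of myeloid cells, were lower at -2.92 (at least 6.28-fold) and -1.51 (at least 2.47-fold).

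**Figure D2:**
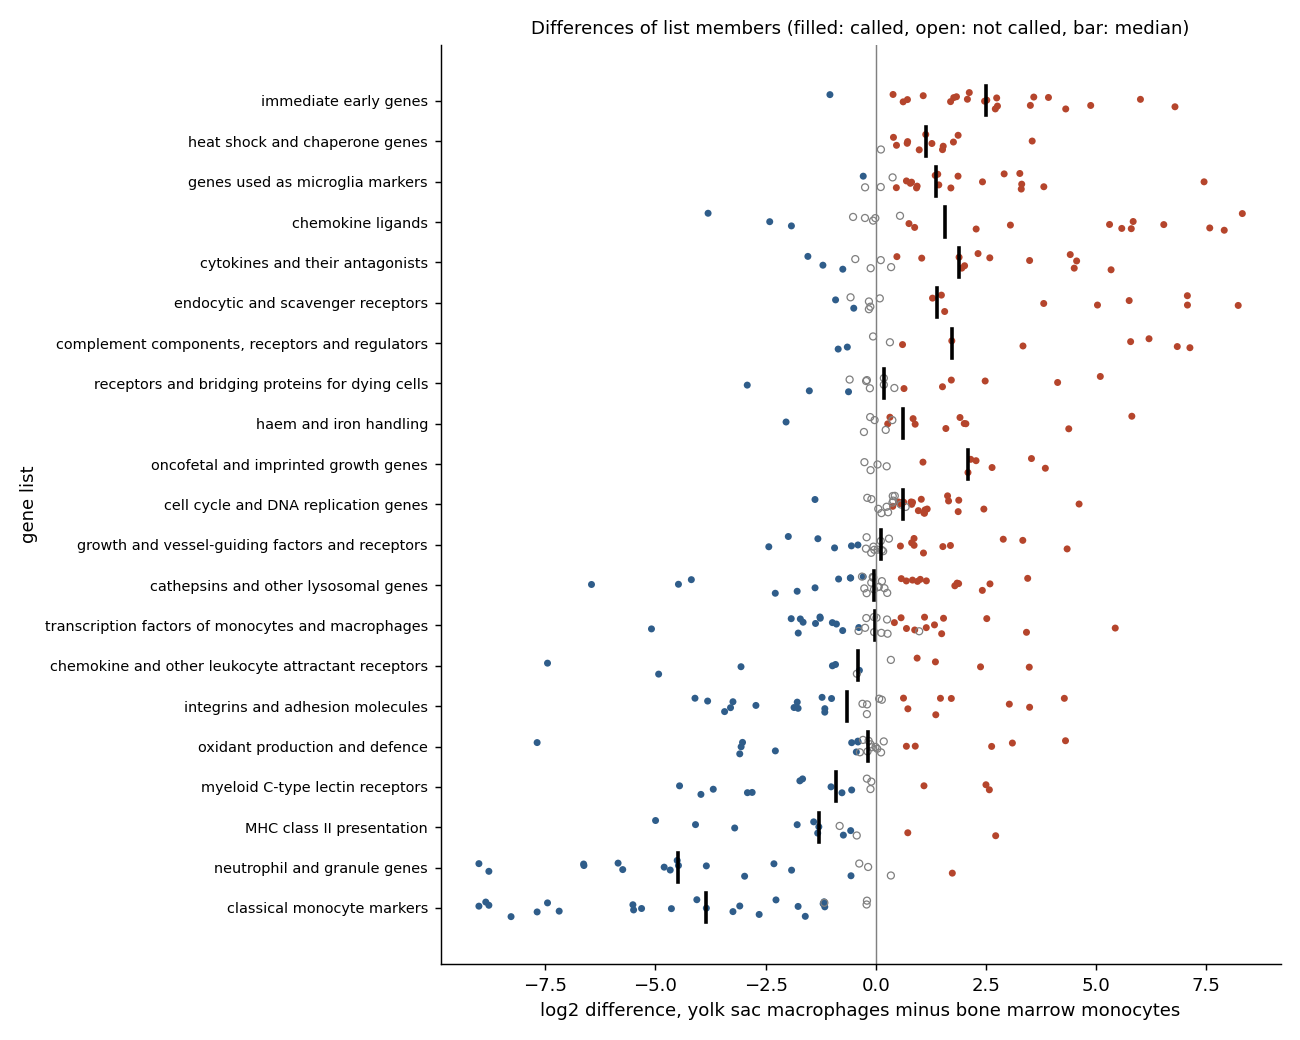
Log2 difference between yolk sac macrophages and bone marrow monocytes (horizontal axis, yolk sac minus bone marrow) for every tested member of 21 gene lists (vertical axis), with called members as filled points, members that were not called as open points and the list's median as a bar. Early response, heat shock and microglia-associated genes lie mostly to the right of 0, classical monocyte and granule genes to the left, and lysosomal and receptor lists spread to both sides.

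Secreted messengers were the next large block. Chemokine ligands were higher in 12 of 20 tested members (60%, against 24.1% of all tested genes) and lower in 3 (15%, against 18.1%). Ccl12, an attractant of Ccr2-bearing monocytes, read 10.34, 11.05, 11.25 and 10.97 in yolk sac macrophages, against 3.21, 2.88, 3.63 and 3.60 in bone marrow monocytes. Ccl7, which binds the same receptor, read 10.59, 10.94, 11.07 and 10.83 in yolk sac macrophages, against 4.43, 4.55, 4.08 and 4.22 in bone marrow monocytes, and Ccl2 read 12.06, 12.53, 12.44 and 12.42 in yolk sac macrophages, against 6.17, 7.15, 6.15 and 7.65 in bone marrow monocytes. Yolk sac macrophages were higher in each array for these ligands, by 7.58 ± 0.29 (at least 77.8-fold), 6.53 ± 0.18 (at least 75.3-fold) and 5.58 ± 0.31. Ccr2 itself went the opposite way, with 4.29, 3.83, 4.08 and 4.03 in yolk sac macrophages, against 11.53, 11.74, 11.37 and 11.38 in bone marrow monocytes. Ccl3 (5.80), an inflammatory chemokine, Ccl24 (5.30), an attractant of eosinophils, and the platelet-type chemokine Ppbp (3.05, at least 3.29-fold) also rose. Ccl6 and Ccl9, constitutive chemokines of mouse myeloid cells, were lower at -3.81 ± 0.16 and -1.92 ± 0.32. The interferon-induced ligands split, with Cxcl10 at 2.28 and Cxcl9 at -2.41 (at least 3.41-fold). Pf4, platelet factor 4, read 12.51, 12.56, 12.56 and 12.49 in yolk sac macrophages, against 4.95, 4.02, 3.66 and 4.23 in bone marrow monocytes.

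Cytokine genes were higher in 12 of 19 tested members (63.2%, against 24.1% of all tested genes) and lower in 3 (15.8%, against 18.1%). Tnf, the central cytokine of acute inflammation, read 11.66, 11.65, 11.27 and 11.67 in yolk sac macrophages, against 7.35, 7.33, 6.75 and 7.17 in bone marrow monocytes. Il1b read 10.04, 9.50, 9.03 and 9.87 in yolk sac macrophages, against 5.27, 5.07, 5.00 and 5.09 in bone marrow monocytes. The 2 populations stood apart for both genes, by 4.41 ± 0.27 and 4.50 ± 0.44. Among the other members of this list, higher genes were Tnfaip3 (3.49) and Nfkbia (2.32), both inhibitors of NF-kB signalling, Socs3 (1.04), an inhibitor of cytokine signalling, and the anti-inflammatory cytokine Il10 (2.59, at least 1.84-fold). Ptgs2, the inducible enzyme of prostaglandin synthesis, differed by 4.56 ± 0.26 (at least 16.7-fold). The interleukin 1 receptor antagonist Il1rn was lower at -0.75, while the decoy receptor Il1r2 was dim in both populations, with means of 3.24 ± 0.13 in yolk sac macrophages and 4.44 ± 0.60 in bone marrow monocytes (SD, n = 4 each), and no size is given for it. Tgfb1 (0.11) and Il15 (0.35) were not called.

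Growth and patterning factors of the yolk sac macrophage included Igf1, insulin-like growth factor 1, with 8.69, 8.66, 8.49 and 9.17 in yolk sac macrophages, against 4.32, 4.95, 4.04 and 4.34 in bone marrow monocytes. Bmp2, a bone morphogenetic protein, read 7.08, 6.99, 6.32 and 6.79 in yolk sac macrophages, against 3.63, 3.31, 3.51 and 3.39 in bone marrow monocytes. Both were higher in all 4 yolk sac arrays, by 4.34 ± 0.26 (at least 17.5-fold) and 3.34 ± 0.13 (at least 4.51-fold). Sema6d, a semaphorin of axon and vessel guidance, differed by 2.89 (at least 4.31-fold), and the semaphorin and VEGF co-receptors Nrp2 and Nrp1 by 1.69 (at least 2.72-fold) and 1.08. Semaphorins of the immune class were lower, with Sema4a at -2.43 and Sema4d at -1.99, as was Hgf, hepatocyte growth factor, at -1.31 (at least 1.82-fold). Over the whole list 10 of 26 tested members were higher (38.5%, against 24.1% of all tested genes) and 6 lower (23.1%, against 18.1%). Ccn1, a secreted matricellular protein that is a member of no list here, read 9.83, 10.94, 10.33 and 10.36 in yolk sac macrophages, against 4.52, 4.18, 4.13 and 4.12 in bone marrow monocytes and stood among the 15 largest rises.

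Immediate early genes were higher almost throughout. All 22 genes of the list were called, 21 of them higher (95.5%, against 24.1% of all tested genes) and 1 lower (4.55%, against 18.1%), with a median difference of 2.49, compared with -0.01 for all genes. Egr2, a zinc finger factor induced within minutes of stimulation, read 11.20, 11.73, 11.40 and 11.69 in yolk sac macrophages, against 6.23, 5.20, 5.02 and 5.55 in bone marrow monocytes. Fosb, a subunit of AP-1, read 10.67, 9.98, 9.62 and 10.58 in yolk sac macrophages, against 5.62, 6.50, 5.86 and 5.62 in bone marrow monocytes. The populations did not overlap for either gene, by 6.00 ± 0.20 and 4.31 ± 0.28. Ier3 (4.88), the phosphatase gene Dusp2 (3.92), Maff (3.58) and Myc (3.51) followed. Fosl2, a late member of the AP-1 family, was the one lower gene, at -1.04 ± 0.13. Heat shock genes moved with them, 12 of 13 being higher (92.3%, against 24.1% of all tested genes) and 1 not called. Hspa1a, the inducible Hsp70, read 10.98, 10.15, 9.25 and 10.37 in yolk sac macrophages, against 6.20, 6.69, 6.92 and 6.75 in bone marrow monocytes. Its cochaperones Hsph1 and Bag3 differed by 1.87 and 1.53, and the constitutive Hspa8, at 0.12, was the gene without a call. Within the yolk sac arrays, replicate 1 was highest and replicate 3 lowest for the mean of the heat shock list, at 9.91 and 9.29, and both exceeded the highest bone marrow array, at 8.51. Digestion with collagenase was used for yolk sacs and not for bones, and its part in these values cannot be told apart from the cell type.

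Genes used as markers of microglia, a cell type that yolk sac macrophages give rise to, were higher in 18 of 22 tested members (81.8%, against 24.1% of all tested genes) and lower in 1 (4.55%, against 18.1%). The median difference was 1.38. Fcrls, an Fc receptor-like scavenger, read 11.46, 11.46, 11.23 and 11.33 in yolk sac macrophages, against 3.87, 3.84, 3.95 and 4.03 in bone marrow monocytes. P2ry12, the ADP receptor that steers microglial processes, read 8.37, 8.90, 8.73 and 8.85 in yolk sac macrophages, against 5.26, 5.51, 5.45 and 5.43 in bone marrow monocytes. Its neighbour P2ry13 read 8.26, 8.79, 8.59 and 8.52 in yolk sac macrophages, against 4.97, 4.82, 5.34 and 5.97 in bone marrow monocytes. None of these genes overlapped between the populations. Gpr34, a receptor for lysophosphatidylserine, differed by 2.91 ± 0.26 (at least 6.49-fold), Slco2b1, an organic anion transporter, by 3.81 ± 0.15 (at least 9.81-fold) and Gpr84, a receptor for medium-chain fatty acids, by 3.31 ± 0.34. Sall1, the factor that fixes microglial identity in the brain, was not called at -0.24, and Tmem119, a marker of mature microglia, differed by 0.78 ± 0.16. Cx3cr1, the fractalkine receptor, was expressed in both populations with 11.09, 10.79, 10.71 and 11.11 in yolk sac macrophages, against 10.06, 10.66, 9.77 and 9.46 in bone marrow monocytes and differed by 0.94 ± 0.20.

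Iron handling was higher in 10 of 16 tested members (62.5%, against 24.1% of all tested genes) and lower in 1 (6.25%, against 18.1%). Both ends of cellular iron traffic rose. Slc40a1, ferroportin, the only known iron exporter, read 10.25, 10.58, 10.23 and 10.02 in yolk sac macrophages, against 4.56, 3.71, 4.57 and 5.01 in bone marrow monocytes. Tfrc, the transferrin receptor that imports iron, read 8.83, 9.13, 8.85 and 9.14 in yolk sac macrophages, against 4.50, 4.66, 4.57 and 4.71 in bone marrow monocytes. Slc40a1 differed by 5.81 ± 0.27 (at least 50.1-fold) and Tfrc by 4.38 ± 0.26 (at least 20.6-fold), with no overlap. Hmox1, haem oxygenase 1, differed by 2.04 ± 0.26, and Blvrb, biliverdin reductase B, by 1.91. Of the storage subunits Fth1 differed by 0.32 and Ftl1 by 0.27, and the Ftl1 call was lost with only the 8 arrays of the comparison (limma adjusted p = 0.065). The haem exporter Flvcr1 was lower at -2.04 ± 0.25. The metal-binding metallothioneins Mt1 and Mt2, members of the oxidant defence list, were higher by 3.10 ± 0.12 and 4.30 ± 0.36 (at least 17-fold).

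Lysosomal genes went in both directions. Of 35 tested, 12 were higher (34.3%, against 24.1% of all tested genes) and 10 lower (28.6%, against 18.1%), with a median of -0.04. Lgmn, the asparagine endopeptidase legumain, averaged 10.94 ± 0.11 in yolk sac macrophages and 7.49 ± 0.36 in bone marrow monocytes (SD, n = 4 each), and its values did not overlap (3.45 ± 0.16). Ctsl, cathepsin L, differed by 2.42 ± 0.14 and Ctsf by 1.79 ± 0.17. Lower in yolk sac macrophages were Napsa, napsin A, with 5.02, 4.64, 4.14 and 4.73 in yolk sac macrophages, against 11.24, 11.19, 11.04 and 10.87 in bone marrow monocytes, and Ctse, cathepsin E, with 5.90, 5.42, 5.62 and 5.55 in yolk sac macrophages, against 9.61, 10.10, 9.92 and 9.60 in bone marrow monocytes. All yolk sac values of these aspartic proteases lay under all bone marrow values. Ctsh and Ctss, cysteine proteases, were lower at -2.28 ± 0.10 and -1.78 ± 0.10. Other lysosomal genes were not called, among them the membrane proteins Lamp1 (-0.10) and Laptm5 (-0.06) and the hexosaminidase chain Hexa (0.07). Of 22 lipid genes 7 were higher (31.8%, against 24.1% of all tested genes) and 8 lower (36.4%, against 18.1%). The cholesterol exporter Abca1 was higher by 4.06 ± 0.19 and its partner Abcg1 lower at -0.87 ± 0.16, while Apoe differed by 1.83 and Lpl, lipoprotein lipase, by 1.87.

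The genes that mark classical monocytes fell in 22 of 25 tested members (88%, against 18.1% of all tested genes) and were not called in 3, with a median difference of -3.85. Ifitm6, a membrane protein of the interferon-induced family, read 3.24, 3.23, 2.77 and 2.95 in yolk sac macrophages, against 11.28, 11.53, 11.08 and 11.42 in bone marrow monocytes. Plac8, a small cysteine-rich protein of myeloid cells, read 7.16, 6.49, 6.16 and 7.41 in yolk sac macrophages, against 12.37, 12.29, 12.27 and 12.27 in bone marrow monocytes. Fn1, fibronectin, read 6.11, 5.36, 6.14 and 6.29 in yolk sac macrophages, against 10.57, 11.98, 11.50 and 11.12 in bone marrow monocytes. No array of yolk sac macrophages reached the bone marrow range in these genes, whose differences were -8.28 ± 0.15 (at least 104-fold), -5.50 ± 0.22 and -5.32 ± 0.40. The calcium-binding proteins S100a4 (-5.51) and S100a6 (-4.64) fell, as did S100a8 (-9.01, at least 259-fold) and S100a9 (-8.78, at least 209-fold), and S100a4 and S100a6 averaged 7.14 ± 0.51 and 8.22 ± 0.73 in yolk sac macrophages (SD, n = 4). Lysozyme Lyz2 differed by -2.65 ± 0.09. Not called were F13a1, Ly86 (-0.21), the partner of the receptor Cd180, and Ifitm3, an antiviral membrane protein, for which limma gave -1.17 at adjusted p = 0.0969. Ifitm3 was called when only the 8 arrays of the 2 populations were fitted (adjusted p = 8.15e-06), and its values did not overlap. Its SD was 0.097 in yolk sac macrophages and 0.055 in bone marrow monocytes. The main fit, which takes 1 spread per gene over all groups, gave its difference an SE of 0.57.

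Further genes higher in bone marrow monocytes than in yolk sac macrophages stood outside the marker lists. Gpr141, an orphan receptor, read 3.89, 2.90, 2.88 and 3.23 in yolk sac macrophages, against 10.44, 10.45, 10.23 and 9.99 in bone marrow monocytes. Plbd1, a phospholipase B-like protein of granules, read 4.62, 4.22, 4.14 and 4.15 in yolk sac macrophages, against 11.12, 11.34, 11.05 and 10.95 in bone marrow monocytes, and Mcemp1, a membrane protein of mast cells and other myeloid cells, read 4.38, 4.08, 4.30 and 3.89 in yolk sac macrophages, against 10.73, 10.93, 10.79 and 10.87 in bone marrow monocytes. In each of them the populations stood apart, with differences of -7.05 ± 0.37 (at least 50.4-fold), -6.84 ± 0.18 (at least 90.2-fold) and -6.66 ± 0.10 (at least 73.8-fold). Klra2, a lectin-like receptor of the Ly49 family, was lower at -6.34 ± 0.19 (at least 35.3-fold). Ly6a2, a gene of the Ly6 cluster, was lower at -8.00 ± 0.17 (at least 75-fold), and probe sets of that cluster can share signal with close relatives. Plbd1 and Ly6a2 were called higher in bone marrow monocytes than in each other group of the series, while Gpr141, Mcemp1 and Klra2 were not. All of these genes also lay above the table median in fetal liver monocytes. Fetal liver monocytes averaged 9.63 for Gpr141, 8.69 for Plbd1, 10.94 for Mcemp1, 9.35 for Klra2 and 9.65 for Ly6a2. In YS-derived and BM-derived macrophages Mcemp1 averaged 11.54 and 11.53 and Klra2 9.3 and 9.68. There Gpr141 averaged 3.72 and 5.32, Plbd1 3.90 and 3.87, and Ly6a2 2.93 and 3.03.

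Genes of granules and neutrophils were high in the bone marrow monocytes and varied between their arrays. Of 19 tested, 15 were lower in yolk sac macrophages (78.9%, against 18.1% of all tested genes) and 1 was higher (5.26%, against 24.1%). Camp, the antimicrobial peptide cathelicidin, read 4.59, 4.37, 4.33 and 4.20 in yolk sac macrophages, against 11.18, 8.95, 11.53 and 12.31 in bone marrow monocytes. Ms4a3, a membrane protein of granulocyte and monocyte progenitors, read 3.72, 3.34, 4.16 and 3.80 in yolk sac macrophages, against 7.14, 4.33, 6.84 and 8.61 in bone marrow monocytes. Ngp, neutrophilic granule protein, read 3.87, 3.73, 3.62 and 3.73 in yolk sac macrophages, against 9.42, 8.23, 10.06 and 10.63 in bone marrow monocytes. Bone marrow replicate 2 was the lowest of its group and replicate 4 the highest for each of these genes. The mean over the 22 measured members was 3.95, 3.88, 3.92 and 3.93 in the yolk sac arrays, against 7.20, 6.65, 7.46 and 7.88 in the bone marrow arrays. Ly6g and Retnlg, markers of mature neutrophils, did not pass the filter and stayed dim, Ly6g with 2.66, 2.67, 2.90 and 2.89 in yolk sac macrophages, against 2.83, 3.04, 3.29 and 3.24 in bone marrow monocytes. Myeloperoxidase Mpo differed by -4.51 ± 0.32 (at least 19.9-fold), elastase Elane by -4.80 ± 0.26 (at least 23.9-fold), proteinase 3 Prtn3 by -4.66 ± 0.17 (at least 24.6-fold) and cathepsin G Ctsg by -4.48 ± 0.29 (at least 8.84-fold). Without bone marrow replicate 2 or without replicate 4 the number of lower genes in this list was again 15. Whether granule transcripts came from the monocytes or from other marrow cells in the sort was not tested. Mmp9, the gelatinase of neutrophil granules, was the one gene higher in yolk sac macrophages, at 1.74 ± 0.12 (at least 2.14-fold).

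**Figure D3:**
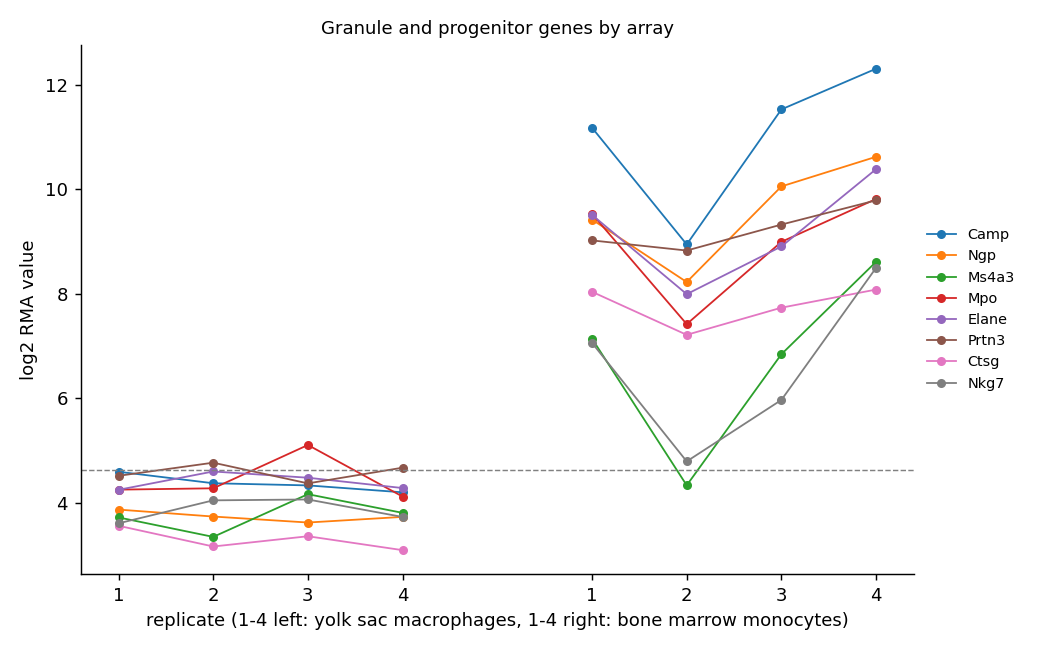
Log2 RMA value (vertical axis) of 8 granule and progenitor genes in each array, with yolk sac macrophage replicates 1 to 4 on the left, bone marrow monocyte replicates 1 to 4 on the right and 1 line per gene that only joins its values. Bone marrow replicate 2 is the lowest of its group for Camp, Ms4a3 and Ngp, replicate 4 is the highest, and the yolk sac values lie under all bone marrow values of the same gene, with the dashed line at the table median of 4.62.

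C-type lectin receptors were lower in 10 of 16 tested members (62.5%, against 18.1% of all tested genes) and higher in 3 (18.8%, against 24.1%). Clec7a, Dectin-1, the receptor for fungal beta-glucan, read 5.80, 5.17, 5.10 and 6.13 in yolk sac macrophages, against 10.16, 10.39, 9.73 and 9.75 in bone marrow monocytes. Clec4e, Mincle, which senses mycobacterial glycolipid, read 3.69, 4.01, 3.91 and 4.07 in yolk sac macrophages, against 8.06, 7.29, 7.88 and 8.32 in bone marrow monocytes. Both stood apart, by -4.45 ± 0.16 and -3.97 ± 0.33 (at least 9.62-fold). The 3 higher lectins were Clec4n, Dectin-2, at 2.58 ± 0.24 (at least 5.79-fold), and the galactose-binding lectins Mgl2 at 2.50 ± 0.18 (at least 2.41-fold) and Clec10a at 1.09 ± 0.23. Of the paired receptors, the inhibitory Pirb (-3.91), Lilrb4a (-2.42) and the activating Trem3 (-4.42, at least 14.5-fold) were lower, whereas Cd200r1, an inhibitory receptor for Cd200, was higher at 2.06 ± 0.21 and the sialic acid receptor Siglec1 at 1.32 ± 0.23. In all, 7 of 21 were higher (33.3%, against 24.1% of all tested genes) and 8 lower (38.1%, against 18.1%). In the Ms4a family, Ms4a7, a tissue macrophage member, read 9.02, 9.22, 9.40 and 9.12 in yolk sac macrophages, against 6.42, 5.62, 5.84 and 5.71 in bone marrow monocytes, while Ms4a4c (-5.57) and Ms4a8a (-4.48) were lower and Ms4a6b (-0.07) and Ms4a6d (0.10) were not called.

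Of 18 Toll-like receptors and cofactors 5 were higher (27.8%, near the 24.1% of all tested genes) and 6 lower (33.3%, against 18.1%). Tlr1 (2.21 ± 0.20) and Tlr4 (1.28 ± 0.10), with its coreceptor Cd14 (1.39 ± 0.23), were higher, Tlr13 (-1.79 ± 0.27) and Tlr8 (-1.77 ± 0.22), receptors for RNA in endosomes, were lower, and Tlr2 (-0.15) and Myd88 (-0.07) were not called. Irak3, an inhibitor of Toll-like signalling, was lower at -2.85 ± 0.16. Among Fc receptors other than Fcrls, the activating Fcgr4 was higher at 1.87 ± 0.16 and the inhibitory Fcgr2b lower at -1.41 ± 0.16. Fcna, ficolin A, a soluble lectin of the complement system, was higher at 3.49 ± 0.15.

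Presentation by MHC class II was lower in 9 of 13 tested members (69.2%, against 18.1% of all tested genes) and higher in 2 (15.4%, against 24.1%). H2-DMa, which loads peptide onto class II molecules, read 5.54, 5.10, 4.69 and 5.69 in yolk sac macrophages, against 10.18, 10.39, 10.32 and 10.12 in bone marrow monocytes. H2-Aa, a class II chain, read 3.48, 3.19, 4.10 and 3.32 in yolk sac macrophages, against 7.74, 7.52, 7.81 and 7.37 in bone marrow monocytes. The populations stood apart for both, by -5.00 ± 0.17 and -4.09 ± 0.45 (at least 7.94-fold). Both higher members were costimulatory ligands of T cells, Cd86 at 2.72 ± 0.27 and Cd80 at 0.73 ± 0.23. Class II probe sets of related chains can share signal. Interferon response genes were lower in 9 of 21 and higher in 2, shares of 42.9% and 9.52% beside 18.1% and 24.1% of all tested genes. Zbp1, a sensor of nucleic acid, was lower at -2.34 ± 0.21, and Bst2, tetherin, was higher by 1.17 ± 0.22.

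The NADPH oxidase, which makes superoxide in phagocytes, was lower in its catalytic subunit. Cybb, that subunit, read 8.76, 8.58, 8.55 and 8.87 in yolk sac macrophages, against 11.60, 12.04, 11.69 and 11.53 in bone marrow monocytes. Ncf4, a cytosolic subunit, differed by -2.28 ± 0.17, while Ncf1 (-0.36) and Rac2 (-0.29) were not called. In the glutathione system, Mgst1, a membrane glutathione transferase, was lower at -7.68 ± 0.17 (at least 111-fold), as were glutathione reductase Gsr at -3.09 ± 0.12 and Gstm1 at -3.06 ± 0.20, while the secreted glutathione peroxidase Gpx3 was higher by 2.63 ± 0.25. Over the list 9 of 24 were lower (37.5%, against 18.1% of all tested genes) and 5 higher (20.8%, against 24.1%). The pentose phosphate enzyme Taldo1 (-1.96 ± 0.12), which belongs to the pathway that supplies NADPH, was lower, and the glycolytic enzymes Tpi1 (1.51 ± 0.16) and Pfkl (1.34 ± 0.20) were higher. The glycolysis list as a whole had 7 higher (35%, against 24.1% of all tested genes) and 6 lower (30%, against 18.1%) of 20, with a median of -0.01.

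Adhesion molecules differed in both directions. Of 26 tested, 8 were higher (30.8%, against 24.1% of all tested genes) and 13 lower (50%, against 18.1%). Itgb2, the beta chain shared by the leukocyte integrins, read 7.24, 7.41, 6.72 and 6.71 in yolk sac macrophages, against 10.35, 10.44, 10.32 and 10.16 in bone marrow monocytes. Its partner Itgam, CD11b, differed by -3.24 ± 0.20 and Itgal, LFA-1 alpha, by -1.76 ± 0.24. Selplg, the ligand of P-selectin used in rolling, read 7.04, 6.58, 6.67 and 7.05 in yolk sac macrophages, against 10.47, 10.88, 10.70 and 10.57 in bone marrow monocytes. For Itgb2 and Selplg every yolk sac array lay below every bone marrow array. Higher were Itga6, a laminin receptor chain, with 7.92, 7.62, 7.69 and 8.28 in yolk sac macrophages, against 4.55, 4.97, 5.03 and 4.85 in bone marrow monocytes, and Itga9, at 3.49 ± 0.15 (at least 5.66-fold). The fibronectin receptor chain Itga5 and the vitronectin receptor chain Itgb5 rose by 1.47 and 1.71. Cd81, a tetraspanin, read 10.75, 10.95, 10.83 and 10.95 in yolk sac macrophages, against 6.95, 5.46, 7.10 and 6.87 in bone marrow monocytes. Among adhesion G protein-coupled receptors, Adgrl2, a latrophilin, was higher by 3.72 ± 0.30 (at least 12.4-fold) and Adgre1, F4/80, by 0.97 ± 0.15, and Adgre5, CD97, was lower at -2.28 ± 0.28. Of the matrix and protease list, 6 of 20 were higher (30%, against 24.1% of all tested genes), among them the protease inhibitor Serpinb6a at 4.99 ± 0.26 and urokinase Plau at 3.79 ± 0.21, and 8 were lower (40%, against 18.1%).

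Of 12 attractant receptors 4 were higher (33.3%, against 24.1% of all tested genes) and 6 lower (50%, against 18.1%). Of 17 growth factor genes 5 were higher (29.4%, against 24.1%) and 9 lower (52.9%, against 18.1%). The leukotriene B4 receptor Ltb4r1 read 3.81, 4.09, 4.04 and 3.56 in yolk sac macrophages, against 8.75, 9.24, 8.63 and 8.60 in bone marrow monocytes. Cxcr4, which holds cells in the marrow, read 9.31, 7.43, 6.28 and 7.08 in yolk sac macrophages, against 10.61, 10.47, 10.60 and 10.65 in bone marrow monocytes. Ltb4r1 stood apart by -4.93 ± 0.15 (at least 18.1-fold) and Cxcr4 by -3.06 ± 0.30. Cxcr4 varied among yolk sac arrays, where it averaged 7.52 ± 1.28, and it was highest in replicate 1. Cmklr1, the chemerin receptor, was higher by 3.48 ± 0.14 and S1pr1, a sphingosine phosphate receptor, by 2.38 ± 0.15 (at least 2.8-fold). Csf1r, the receptor for M-CSF, was present in both with 10.88, 10.59, 10.69 and 10.85 in yolk sac macrophages, against 9.15, 9.73, 9.54 and 9.20 in bone marrow monocytes, a difference of 1.35 ± 0.20. Receptors for the other colony-stimulating factors were lower, Csf3r at -2.31 ± 0.26, Csf2ra at -1.15 ± 0.18 and Csf2rb at -1.39 ± 0.19, as was Flt3 at -1.29 ± 0.15 (at least 1.66-fold).

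Of 34 transcription factors of the lineage 12 were higher (35.3%, against 24.1% of all tested genes) and 12 lower (35.3%, against 18.1%). Etv5, an ETS factor downstream of receptor kinases, read 9.93, 9.25, 9.60 and 9.66 in yolk sac macrophages, against 3.65, 5.31, 4.25 and 3.50 in bone marrow monocytes. Maf, a factor of tissue macrophages, read 7.98, 7.98, 8.40 and 7.47 in yolk sac macrophages, against 4.27, 4.81, 4.56 and 4.51 in bone marrow monocytes. They rose by 5.43 ± 0.26 (at least 31.7-fold) and 3.42 ± 0.19 (at least 10.1-fold). Nfe2, known from megakaryocytes and red cells, read 4.27, 4.24, 4.50 and 6.64 in yolk sac macrophages, against 10.04, 10.40, 9.83 and 9.74 in bone marrow monocytes. Replicate 4 was the highest of the yolk sac arrays for Nfe2 and still lay under every bone marrow array (-5.09 ± 0.37). Klf4 (-1.92 ± 0.17), Cebpe (-1.76 ± 0.23), Irf4 (-1.71 ± 0.30, at least 3.2-fold), Irf5 (-1.37 ± 0.16) and Irf8 (-0.99 ± 0.16), factors of monocytes and granulocytes, were lower. Runx1, which starts definitive blood formation, was higher at 1.33 ± 0.14, and Pparg, the factor of alveolar macrophages, at 1.11 ± 0.14. Zeb2 (0.02), Cebpb (-0.22) and Bhlhe40 (-0.04) were not called.

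Of 34 tested proliferation genes 21 were higher (61.8%, against 24.1% of all tested genes) and 1 was lower (2.94%, against 18.1%). Ccnd1, cyclin D1, read 9.39, 9.51, 9.32 and 9.70 in yolk sac macrophages, against 4.94, 4.93, 5.08 and 4.51 in bone marrow monocytes. Of the other D cyclins, Ccnd3 was lower at -1.38 ± 0.13, while Ccnd2 (-0.19) was not called. Helicase subunits of DNA replication rose, Mcm6 by 1.88 ± 0.24, Mcm2 by 1.87 ± 0.23 and Mcm4 by 1.65 ± 0.25. Genes of mitosis were closer, with Cdk1 at 1.17 ± 0.19, and Mki67 (0.38), Top2a (0.28) and Ccna2 (-0.10) were not called. Oncofetal and imprinted genes were higher in 7 of 11 tested members (63.6%, against 24.1% of all tested genes) and not called in 4, and 10 more did not pass the filter. Of the 21 measured, 11 averaged above the table median in yolk sac macrophages and 6 in bone marrow monocytes. Members could pass the filter through the yolk sac arrays alone, so the share is not read as a result about the list. Lin28b, the fetal inhibitor of let-7 processing, read 5.87, 5.22, 5.27 and 5.17 in yolk sac macrophages, against 3.31, 3.25, 3.33 and 3.04 in bone marrow monocytes. Igf2bp1, an RNA-binding protein of fetal tissue, read 7.95, 8.14, 7.94 and 8.37 in yolk sac macrophages, against 4.26, 4.09, 4.36 and 4.29 in bone marrow monocytes. Impact, an imprinted gene, differed by 2.27 ± 0.18, Peg10 by 2.64 ± 0.15 (at least 3.48-fold) and Igf2 by 2.09 ± 0.24 (at least 3.36-fold). Of 19 Hox and adult haematopoietic genes 9 passed the filter, with 2 lower (22.2%, near the 18.1% of all tested genes), 0 higher (against 24.1%) and 7 not called. Ikzf1, a regulator of lymphoid and myeloid fate, was lower (-0.76 ± 0.17). Hoxb5, dim in both populations, was lower but close to the threshold (-0.35, limma adjusted p = 0.0479). Its call was lost without yolk sac replicate 2, 3 or 4 or bone marrow replicate 1 or 3, at -0.36 to -0.27. The Hoxb5 call was also lost with the replicate block, no filter, centred arrays, repeated quantile normalisation or only the 8 arrays of the comparison (limma adjusted p from 0.058 to 0.18).

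Markers of other cell types that might remain after sorting were read beside these results. Of 14 measured erythroid genes 6 were tested and 4 were higher (66.7%, against 24.1% of all tested genes). Here too members could pass the filter through the yolk sac arrays alone, and the share is not read as a result. The embryonic globin Hbb-y read 10.93, 11.06, 10.00 and 9.78 in yolk sac macrophages, against 3.16, 3.55, 3.66 and 3.62 in bone marrow monocytes, and Hba-x read 9.58, 9.32, 8.59 and 8.67 in yolk sac macrophages, against 5.03, 4.80, 4.63 and 5.02 in bone marrow monocytes. Defining genes of red cell precursors were dim in both populations, with Klf1 at 3.82, 3.82, 3.88 and 3.52 in yolk sac macrophages, against 4.31, 3.72, 3.92 and 4.02 in bone marrow monocytes and Alas2 at 4.10, 4.20, 3.98 and 4.28 in yolk sac macrophages, against 4.31, 4.19, 4.08 and 3.98 in bone marrow monocytes. Of 23 endoderm and liver genes 7 of 12 tested were higher (58.3%, against 24.1%) and 0 lower (against 18.1%). Higher members included Ttr (2.16 ± 0.23, at least 1.83-fold) and Apoa2 (1.44 ± 0.25), and also Dab2, which macrophages share with that tissue. The mean over the 23 genes was 5.04, 4.70, 5.07 and 4.83 in the yolk sac arrays, against 4.23, 4.06, 4.08 and 4.08 in the bone marrow arrays. Of the defining genes of liver, Hnf4a was not called (-0.13) and Alb was dim with 3.51, 3.69, 3.48 and 3.73 in yolk sac macrophages, against 3.77, 3.60, 3.41 and 3.65 in bone marrow monocytes. Of 13 measured megakaryocyte and platelet genes 9 were tested. The chemokines Pf4 and Ppbp alone were higher (22.2%, near the 24.1% of all tested genes) and 1 gene was lower (11.1%, against 18.1%). The integrin chain Itga2b differed by -0.38 ± 0.12 (limma adjusted p = 0.0138, and 0.069 without yolk sac replicate 2, 0.074 without bone marrow replicate 3, 0.071 with arrays centred, 0.077 after repeated quantile normalisation and 0.071 with only the 8 arrays of the comparison). The platelet glycoprotein Gp5 was not called (-0.03). Endothelial genes gave 3 higher (50%, against 24.1%) and 2 lower (33.3%, against 18.1%) of 6 tested, with Cdh5 under the filter at 4.55, 4.16, 4.68 and 4.06 in yolk sac macrophages, against 3.77, 3.70, 3.74 and 4.05 in bone marrow monocytes. Among B cell genes Bank1, a signalling scaffold, read 7.37, 7.63, 7.33 and 7.63 in yolk sac macrophages, against 3.85, 3.93, 3.17 and 3.75 in bone marrow monocytes, and Cd79b, a chain of the B cell receptor, was higher by 2.11 ± 0.22, while Cd79a, its obligate partner, stayed dim with 2.75, 2.79, 2.63 and 2.53 in yolk sac macrophages, against 3.39, 2.73, 2.87 and 2.69 in bone marrow monocytes. T and NK cell genes gave 1 lower of 5 tested (20%, against 18.1%), Nkg7, which among the bone marrow arrays was again lowest in replicate 2 and highest in replicate 4. The part of such cells in the results was not tested. Of 4 tested sex-linked genes limma called 0, also at an unadjusted p under 0.05, and their adjusted p-values ran from 0.258 for Uty to 0.845 for Kdm5d. With only the 8 arrays of the comparison Uty was called (0.63, limma adjusted p = 0.027).

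Fetal liver monocytes, which are fetal like the yolk sac macrophages and monocytes like the bone marrow cells, were read beside both. These comparisons share arrays, so their values are given side by side. Over all genes 33.1% were called between yolk sac macrophages and fetal liver monocytes and 19.5% between fetal liver and bone marrow monocytes. In the first of these 18.6% rose and 14.5% fell in yolk sac macrophages, and in the other 10.6% rose and 8.97% fell in fetal liver monocytes. Classical monocyte markers were lower in 22 members in yolk sac macrophages against bone marrow and in 20 against fetal liver, and fetal liver against bone marrow gave 14 lower and 1 higher. Microglia-associated genes were higher in 18 members and lower in 1 in yolk sac macrophages against bone marrow, and higher in 16 and lower in 0 against fetal liver. Fetal liver against bone marrow gave 3 higher and 4 lower for these genes. Proliferation genes ran differently: 21 rose and 1 fell in yolk sac macrophages against bone marrow, 1 was higher and 9 were lower against fetal liver, and 28 were higher in fetal liver against bone marrow. Ccnd1 averaged 9.48 ± 0.17 in yolk sac macrophages, 4.89 ± 0.37 in fetal liver monocytes and 4.87 ± 0.25 in bone marrow monocytes (SD, n = 4 each). Igf2bp1 averaged 8.10 ± 0.21 in yolk sac macrophages, 6.10 ± 0.55 in fetal liver monocytes and 4.25 ± 0.12 in bone marrow monocytes, with fetal liver between the other two (yolk sac minus fetal liver 1.99 ± 0.17, adjusted p = 6.39e-12). Immediate early genes were higher in 20 members and lower in 2 in yolk sac macrophages against fetal liver. For the same list fetal liver against bone marrow gave 8 higher and 1 lower. Egr1, the best-known immediate early factor, averaged 11.91 ± 0.07 in yolk sac macrophages, 8.56 ± 0.58 in fetal liver monocytes and 5.12 ± 0.35 in bone marrow monocytes. The interferon list had 16 of 21 members higher and 1 lower in yolk sac macrophages against fetal liver, and 2 higher and 9 lower against bone marrow. Fetal liver against bone marrow gave 21 lower and 0 higher for the same list.

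Within the whole series, 930 genes (7.6% of those tested) were higher in yolk sac macrophages than in each of the 8 other groups, by 8 contrasts of the same fit, and 298 (2.43%) were higher in bone marrow monocytes than in each of the others. On the yolk sac side they held 17 of 22 immediate early genes, 14 of 22 microglia-associated genes, 11 of 20 chemokine ligands and 6 of 12 endoderm genes. By the size of the smallest of the 8 differences, the genes named were Ccl12, Fcrls, Lyve1, C1qb, Hbb-y, Ccl7, C1qc and C1qa. The means of Ccl12, Fcrls, Lyve1, C1qb, Hbb-y and Ccl7 in all 8 other groups were under 4.62, so the order among these genes is not read. Such genes could pass the filter through the yolk sac arrays alone, so their place above all other groups is partly set by the filter. Lyve1, a hyaluronan receptor, averaged 11.34 ± 0.25 in yolk sac macrophages, against 4.35 ± 0.20 in their own descendants and 4.27 ± 0.12 in bone marrow monocytes. On the bone marrow side the genes named were Stxbp6, Cd177, Ngp, Clec2i, Klrb1f, Cyp39a1, Dpp4 and Itgb7, of which Klrb1f, Cyp39a1 and Dpp4 had means under 4.62 in all 8 other groups. Klrb1f, Cyp39a1 and Dpp4 could likewise pass the filter through the bone marrow arrays alone. Stxbp6, a protein of vesicle fusion, read 4.72, 4.52, 4.56 and 4.36 in yolk sac macrophages, against 9.75, 9.25, 9.11 and 10.16 in bone marrow monocytes. In fetal liver monocytes it averaged 4.69 ± 0.10, near the table median. Itgb7, an integrin of gut homing, read 4.53, 4.38, 4.18 and 3.88 in yolk sac macrophages, against 8.33, 8.37, 8.61 and 8.08 in bone marrow monocytes. Classical monocyte markers contributed 9 of 25 and interferon response genes 8 of 21.

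**Figure D4:**
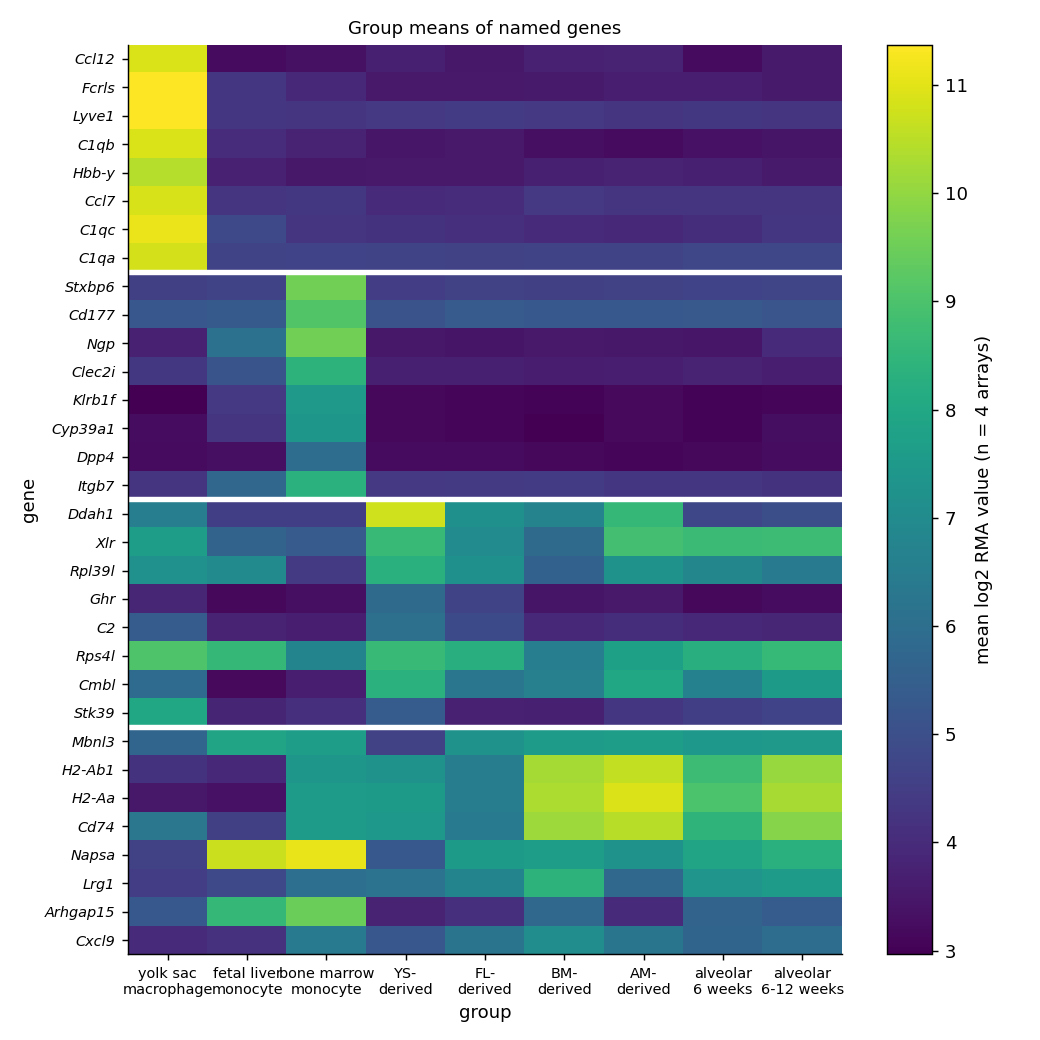
Mean log2 RMA value (colour scale) of the 8 named genes above every other group in yolk sac macrophages, the 8 in bone marrow monocytes and 16 genes with the same direction between precursors and descendants (rows), in all 9 groups of 4 arrays (columns). The top block is bright in yolk sac macrophages alone and the second in bone marrow monocytes, and the lower blocks show the direction of the precursors again in the YS-derived and BM-derived columns.

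The group means of the descendants came from other arrays than those of the precursors. The main fit, however, used the same spread per gene, taken over all groups, for both comparisons. A gene of small spread was thereby favoured for a call in both, so calls shared by the comparisons are no independent reading. YS-derived and BM-derived macrophages differed in 102 genes (0.833% of those tested), 48 higher (0.392%) and 54 lower (0.441%) in YS-derived cells. With only the 8 arrays of that contrast these numbers were 33 higher and 30 lower. Of the 5166 genes called between the precursors, 57 (1.1%) were called with the same sign between the descendants, beside 0.833% of all tested genes with either sign. These genes made up 55.9% of the descendant calls, while 42.2% of all tested genes were called between the precursors with either sign. A further 7 genes were called in both with opposite signs. Among the 1935 genes that differed at least 2-fold between the precursors, the median absolute difference was 1.53 between precursors and 0.16 between descendants. In 1812 of them the difference was smaller between descendants with an interaction called by limma. These genes were picked by their precursor difference, which is also a term of the interaction, so the selection itself favours both outcomes. Over all genes the interaction was called in 3751 (30.6%).

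Genes with the same sign were led by Ddah1, an enzyme that breaks down methylarginines, which averaged 6.57 ± 0.31 in yolk sac macrophages and 4.51 ± 0.21 in bone marrow monocytes, and 10.75 ± 0.40 in YS-derived and 6.71 ± 0.44 in BM-derived macrophages (SD, n = 4 each). The ribosomal protein paralogs Rpl39l and Rps4l differed by 2.84 and 2.31 between precursors and by 2.74 and 2.06 between descendants. C2, a protease of the complement cascade, differed by 1.72 and 2.17. Xlr, a gene of the X-linked lymphocyte-regulated family, differed by 2.27 and 2.80, and Cmbl, a hydrolase, by 2.22 and 1.71. Stk39, a kinase of ion transport, differed by 3.85 before and 1.70 after transfer, a change that was itself called (interaction -2.15, adjusted p = 5.88e-06). The lower of the precursor means was dim for C2, Cmbl, Cxcl9, Ddah1, H2-Aa, H2-Ab1, Lrg1, Rpl39l and Stk39, so their differences between precursors are those of the probe sets. Ghr, the growth hormone receptor, differed by 0.55 and 2.43. It was dim in both precursors, where its values overlapped, and the call was lost in limma without yolk sac replicate 1 (0.54), 3 (0.46) or 4 (0.52) or bone marrow replicate 4 (0.49).

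Lower in both comparisons were the class II genes H2-Ab1 (-3.20 between precursors and -2.93 between descendants), H2-Aa (-4.09 and -2.79) and Cd74, the invariant chain (-1.32 and -2.71). The interaction was not called for these 3 genes, with adjusted p = 0.753, 0.121 and 0.0559. Mbnl3, a splicing regulator of the muscleblind family, averaged 5.71 ± 0.39 in yolk sac macrophages and 7.65 ± 0.70 in bone marrow monocytes, and 4.63 ± 0.37 in YS-derived and 7.59 ± 0.20 in BM-derived macrophages. Napsa differed by -6.45 between precursors and -2.41 between descendants, and Arhgap15, a brake on the small GTPase Rac, by -4.21 and -1.98. Lrg1, a secreted glycoprotein, and the chemokine Cxcl9 differed by -1.52 and -2.41 between precursors and by -2.24 and -1.82 between descendants. The precursor call of Lrg1 was lost without bone marrow replicate 3 (-1.26) or replicate 4 (-1.16). Of genes at the extremes of the precursor comparison, C1qb differed between the descendants by 0.16, S100a9 by 0.04 and Ccr2 by -0.33, none of them called.

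**Figure D5:**
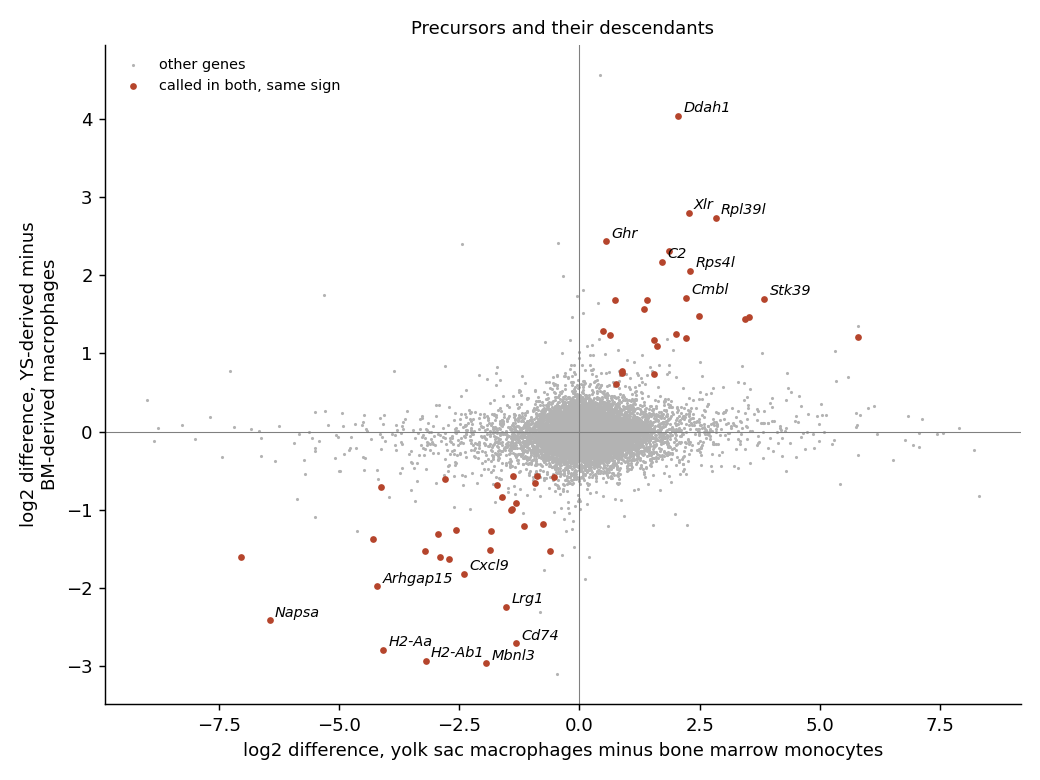
Log2 difference between YS-derived and BM-derived macrophages (vertical axis) against the log2 difference between yolk sac macrophages and bone marrow monocytes (horizontal axis) for 12244 genes, with the 57 genes called with the same sign in both drawn in colour and those led by the text named. The cloud is long along the horizontal axis and narrow along the vertical one, and the coloured genes lie in the upper right and lower left.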

How the data were processed

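RNA of sorted cells was amplified and hybridised to Affymetrix Mouse Gene 1.0 ST arrays, per the labels. The deposited values are log2 intensities that the authors normalised with RMA, per the submitters' processing notes, so background correction and summarisation could not be changed here. Array number, 4 per group, limits the precision. The platform annotation pairs 21789 of 35556 probe sets with a single gene symbol, 1621 with more than 1 and leaves 12146 unnamed, and 21698 symbols were updated through Entrez identifiers. Where a gene had more than 1 probe set (999 genes), the brightest on average was kept. Using R 4.3.3, limma 3.58.1 with its lmFit and eBayes steps, checked on simulated data, fitted 1 mean per group over all 36 arrays, with Benjamini-Hochberg adjustment over 12244 genes. Replicates are labelled as biological, and p-values measure the spread between these samples. The labels give no batch. The alternatives were other filters, probe set means, array centring, repeated quantile normalisation, a trended robust prior, array weights, a replicate block, the contrast's own arrays, and leaving out each array. Named genes are list members, up to 15 of the largest rises and falls without overlap, up to 8 farthest above all other groups, up to 8 per sign shared with descendants, and up to 5 of the largest SD per group, leaving out predicted and small RNA genes. The gene lists and the comparison were chosen with earlier results of these data known. Promoters come from RefSeq on GRCm38.p6.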

Additional observations from a re-analysis of the deposited data

Results flagged for a closer look

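Among 516 groups of 4 arrays, taken over the named genes in both populations, 26 (5.04%) held an array that lay far from the other three by Dixon's criterion, and chance flags about 1 in 20 groups. In yolk sac macrophages, replicate 1 was the high array for Ccnd3 at 7.59, Ikzf1 at 7.91, Il1rn at 6.66, Lin28b at 5.87, Plbd1 at 4.62 and Tlr2 at 10.01, and the low array for Ctsf at 7.03. Replicate 4 was high for Cd14 at 8.83, Lyve1 at 11.72, Nfe2 at 6.64, Nrp1 at 8.90 and Slco2b1 at 8.20, and low for Chil3 at 3.10. Replicate 3 was high for Mpo at 5.10 and low for Tnf at 11.27, and replicate 2 was low for Mt2 at 8.23. In bone marrow monocytes, replicate 2 was low for Cd81 at 5.46, Clec10a at 4.23 and Mmp9 at 3.67 and high for Lamp1 at 11.05 and Zeb2 at 9.87. Replicate 3 was low for C1ra at 4.85 and Ttr at 3.03, replicate 1 was high for Ccn1 at 4.52 and S1pr1 at 4.27, and replicate 4 was high for C1qc at 4.54. The widest of these groups was Nfe2 in yolk sac macrophages, whose 4 values spanned 2.40.

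The difference between the populations changed over transfer in 3751 genes by limma's interaction test. Among genes with the same sign before and after, the change (descendants minus precursors) was 1.88 for Ghr, -2.15 for Stk39, -1.03 for Mbnl3, 4.04 for Napsa and 2.23 for Arhgap15. Mbnl3 and Ghr differed more between descendants, and Stk39, Napsa and Arhgap15 less.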

How the results depend on the processing

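Of 151 recomputed counts over all genes, 150 stayed within 1.5 times the value given. The exception was the number of genes lower in YS-derived than in BM-derived macrophages, 30 when only the arrays of that contrast were fitted, compared with 54, and the cause was not tested. Leaving out each of the 8 arrays in turn gave 2626 to 2869 genes higher and 1956 to 2119 lower in yolk sac macrophages, 1121 to 1222 and 743 to 775 at 2-fold or more, 815 to 932 above every other group in yolk sac macrophages and 243 to 298 in bone marrow monocytes, 45 to 49 higher and 51 to 54 lower in YS-derived macrophages, and 3372 to 3769 interactions. No pairing by replicate number was seen over all genes: deviations of same-numbered arrays correlated at 0.021, -0.165, -0.027 and 0.015, and with the replicate block 2945 genes were higher and 2191 lower. A pairing that touches only part of the genes was not tested. Counts within lists moved by more than 1.5 times in 72 of 1462 cases. Of the named genes with a call, 223 in all, 5 lost it under at least 1 alternative (Hoxb5, Itga2b, Ghr, Lrg1 and Ftl1), and of those without a call 6 gained one (C5ar2, Ncf1, Rac2, Sall1, Ifitm3 and Uty). No called gene changed sign, while 11 genes without a call did. With arrays centred on their medians these were Bhlhe40 (0.059), C1ra (0.039), Ccna2 (0.0023), Gp5 (0.068), Laptm5 (0.039), Ms4a6b (0.035), Myd88 (0.032) and Spi1 (0.064), and after repeated quantile normalisation Bhlhe40 (0.053), Gp5 (0.078), Ms4a6b (0.011) and Zeb2 (-0.015). Over the fits that left out 1 array, the differences ran for Bhlhe40 from -0.28 to 0.096, C1ra from -0.26 to 0.017, F13a1 from -0.29 to 0.0099, Gp5 from -0.12 to 0.019, Kdm5d from -0.024 to 0.22, Laptm5 from -0.14 to 0.066, Myd88 from -0.11 to 0.0068, Spi1 from -0.15 to 0.039 and Zeb2 from -0.11 to 0.26. Dim probe sets near the table median give bounds only.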
